A study of Danio rerio with 9 samples.

Results

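Neurons of the adult zebrafish brain that regrew an axon past a severed spinal cord were set against neurons of lesioned fish that did not, across the 15502 probe sets of an Affymetrix zebrafish array that are no controls. The comparison takes 6 of the study's 9 arrays, chosen by the sample titles, with 3 labelled regenerated and 3 labelled non-regenerated. Fish of both groups had the cord cut completely at vertebra 8, where the red tracer Fluororuby was applied, and both groups therefore share the lesion, the red tracer and the time of sorting. At 3 weeks the green tracer Fluoroemerald was placed 4 mm further down the cord, and the dissociated brain was sorted by fluorescence 1 week later. Regenerated neurons are those reached by the green tracer, and nonregenerated neurons are those recorded as not having regrown an axon. Axon regrowth thus cannot be told apart from uptake of the green tracer, or from any injury of the regrown axon at its placement. The other 3 arrays hold red-traced neurons of unlesioned fish sorted 1 week after tracing, which entered the fit as a shared estimate of spread. Strain, sex, exact age, the sorting gates and the number of fish behind each sample are not given in the sources used here, and neither is whether a regenerated and a nonregenerated sample came from the same fish. The samples of a group are labelled biological replicates.

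As background, neurons of the hindbrain and midbrain send long axons down the cord, and adult fish regrow some of them after injury. A tracer applied to cut axons travels back to the cell body, so a cell that carries the distal tracer had an axon that reached it. Growth of a cut axon is known to draw on transcription factors of the injury response, on cytoskeletal and growth cone proteins and on mitochondria, and it is opposed in mammals by proteoglycans and other cues made largely by glia. Purkinje neurons, the output neurons of the cerebellar cortex, are not among the classical neurons with axons in the cord. Radial glia line the ventricles of the adult fish brain and act as its neural progenitors.

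All values are log2 values from which each probe set's own median over the 9 arrays had been taken away, so they compare arrays for a probe set and give no level. A change is the regenerated mean minus the nonregenerated mean, with the standard error of the limma fit after ± (3 arrays a group), and a call is a Benjamini-Hochberg adjusted p under 0.05 over all probe sets or, for gene lists, over all 8793 genes. A change near the threshold can be called over all genes and not over all probe sets. For stmn2a the limma adjusted p was 0.0462 over genes and 0.0505 over probe sets. The regenerated arrays were the more variable ones. The median SD over the 3 arrays was 0.343 in the regenerated group, against 0.259 in the nonregenerated and 0.256 in the unlesioned group, and 63.2% of probe sets had the larger SD in the regenerated group. After a further quantile normalization that share was 45.5%. That step gives every array the same distribution of centred values. Before it, the SD over probe sets was 0.594 to 0.650 in regenerated and 0.394 to 0.427 in nonregenerated arrays. The step thus narrows the regenerated arrays by itself and cannot decide which group varied more. The fit pools the spread over the groups, so an SE can be too small where the regenerated arrays vary more than the others. The 22 negative control probe sets had medians of 0.48, 0.04 and 0.28 in regenerated arrays 1, 2 and 3, against -0.16, -0.01 and 0.00 in the nonregenerated arrays. Regenerated array 1 thus read highest of the 6 on probe sets without a zebrafish target. A fit with this reading as a covariate ended the calls of 59 of the 110 called members of the gene lists below and kept 51. The reading was higher in every regenerated than in every nonregenerated array, so the covariate shares part of the group difference. That fit also has 5 residual degrees of freedom, beside 6 without the covariate. Why a call ended with it can therefore not be told. Counts of this fit are given for the lists described at most length.

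Of the 15502 probe sets, 380 were called (2.45%), 162 higher (1.05%) and 218 lower (1.41%) in regenerated neurons. Called changes were large. The smallest was 0.79 on the log2 scale, 155 rises and 212 falls exceeded 1, and 27 rises and 24 falls exceeded 3. None of the 380 had overlapping groups, beside 21.8% of all probe sets whose groups did not overlap. The share of calls that were higher was 42.6%. It was 27.2% when arrays were centred on their 75th percentile, with a median change of all probe sets of -0.06 beside 0.06 as deposited, and 60.1% with the control reading as a covariate, where 183 probe sets were called. The fit was also repeated 9 times with a different array of the 9 left out each time (leave-one-out fits). The count was 572 without regenerated array 1, 181 without nonregenerated array 2 and 197 without nonregenerated array 3. A gene symbol was known for 258 of the called probe sets. Of the 8793 genes 2.96% were called, 1.25% higher and 1.71% lower, and the counts of lists and families below stand beside these shares. The lists and families were chosen with earlier results of these data known, so their counts are descriptive and no independent test. A gene can belong to several of them, so their counts are not independent of each other.

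**Figure D1:**
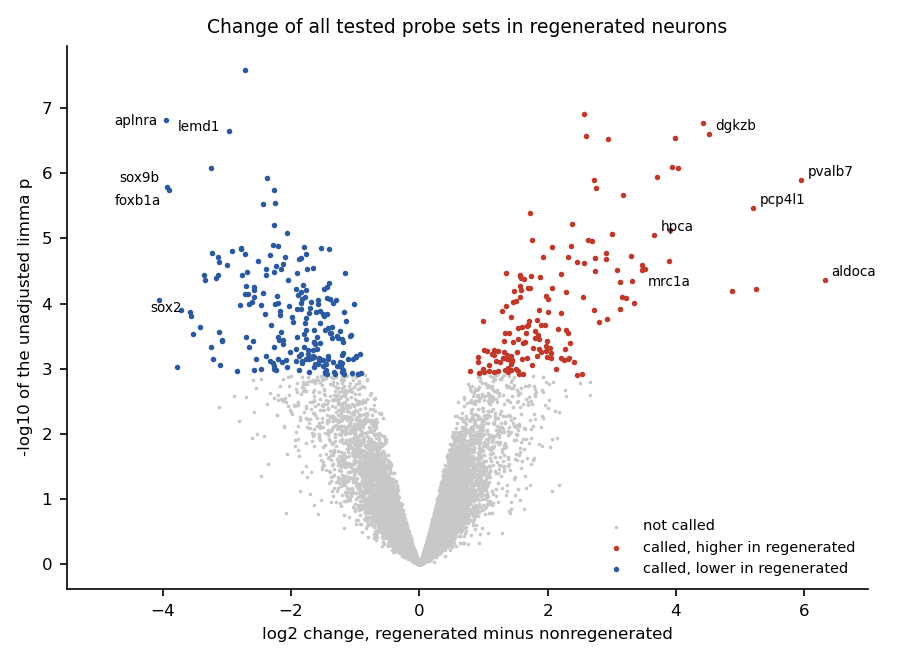
Log2 change (regenerated minus nonregenerated, x axis) against the -log10 of the unadjusted limma p (y axis) for 15502 probe sets, with the 162 called rises in red, the 218 called falls in blue and the rest in grey. The rises reach 6.33 and the named falls reach -3.95.

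The arrays were first read for markers of the cell types a brain sort can hold. Markers of radial glia and astroglia were lower in the regenerated neurons. All 24 measured genes of the 38 listed had point estimates below 0 and 8 were called lower, against 2.96% of all 8793 genes called (1.71% lower), and the median change was -1.16, with 0.06 over all genes. Their mean value was -0.66, -1.39 and -1.18 in the regenerated arrays, against 0.15, 0.44 and 0.38 in the nonregenerated arrays. The 8 were sox9b, sox9a, notch3, her6, atp1a1b, sox19a, sox3 and sox2. Other radial glial genes were not called, among them gfap at -1.16, the glutamate transporter slc1a2b at -2.20, glutamine synthetase glulb at -1.86 and the brain aromatase cyp19a1b at -0.27. Leaving out 1 array at a time gave 6 to 12 called glial genes, and the covariate gave 7. With p adjusted over all genes, the calls of her6 and sox3 ended with it, and 1 other gene was called.

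Oligodendrocyte lineage genes followed the same direction. The transcription factors sox10, olig2 and nkx2.2a fell among 7 measured genes, whose median was -1.34, and no gene of the list rose. Array means were -1.08, -0.94 and -1.78 in regenerated neurons, against 0.28, -0.01 and 0.13 in nonregenerated neurons. The myelin genes mbpa and mbpb were at 0.28 and -0.26, neither called, and cldnk was at -1.34. With the negative control covariate none of the 3 calls held (the list had 0 calls) and the list's median was -0.55, and without regenerated arrays 1 and 3 it was -0.16.

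The neuronal markers of the lists moved in 1 class above all. Of 15 measured genes known from Purkinje neurons 8 rose and none fell, beside 1.25% of all genes called higher, with a median change of 1.61. Their mean was 1.79, 1.95 and 1.91 in the regenerated arrays, against -0.21, -0.54 and -0.74 in the nonregenerated arrays, and all 3 regenerated arrays lay above all others. The 8 were dgkzb, casq2, pvalb7, pcp4l1, ca8, aldoca, lhx1a and gad1b. The list was chosen with earlier results of these data known, and dgkzb and casq2 rose by 4.52 and 3.94 here. The count of 8 therefore describes the list and is no independent test against the 1.25%. The Purkinje genes calb1 at 1.39 and gng13b at 1.79 were not called, nor were the transcription factors rorab at -0.71 and foxp2 at -0.98. Leaving out 1 array gave 6 to 8 called. With the covariate 5 rose, and foxp2 fell, by 1.74 (limma adjusted p = 0.0411), while the calls of aldoca, lhx1a and gad1b ended. Of the 14 GABAergic and glycinergic genes pvalb7, pvalb6 and gad1b rose.

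Neurons known to project to the cord gave no call. Their 12 measured genes, among them lhx3, evx1, sim1a and calb2a, ran from -0.01 to 0.74 with a median of 0.34. No gene was called among 15 leukocyte markers (median 0.02), 9 erythroid markers, 11 granule cell markers, 3 glutamatergic markers, 9 monoaminergic and cholinergic markers or 17 skeletal muscle markers, and 1 of 10 endothelial and mural markers fell, the apelin receptor aplnra. The endothelial mean was 0.85 in regenerated array 1, against -0.09 and 0.04 in regenerated arrays 2 and 3 and 0.01, 0.15 and 0.06 in the nonregenerated arrays. In centred values no marker can be said to be at 0 or absent, so the labelled neuronal identity could be compared between arrays but not checked outright. In RNA of sorted pools, fewer cells of a type and less RNA per cell cannot be told apart. The part of the glial and Purkinje markers in the other changes was not tested.

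**Figure D2:**
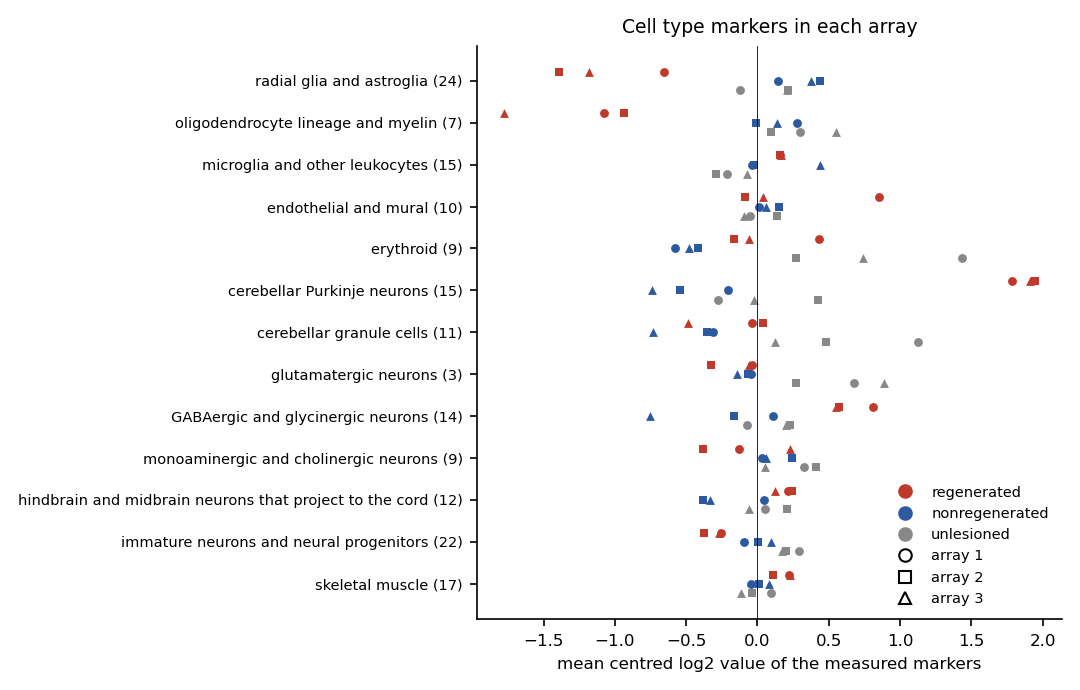
Mean centred log2 value (x axis) of the measured markers of 13 cell types, with the number measured in brackets, in each of the 9 arrays. Colours mark the groups and shapes the array number. Glial and oligodendrocyte means lie at or below -0.66 in the regenerated arrays and Purkinje means at or above 1.79, apart from the other 6 arrays.

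The 25 largest rises with an informative symbol fell into a few classes. The largest was of a Purkinje enzyme, and several of the next were of proteins that buffer or sense calcium. Aldolase C (aldoca), the zebrin antigen of Purkinje neurons and a glycolytic enzyme, had values of 5.93, 5.58 and 5.19 in the regenerated arrays, against -0.12, -0.60 and -1.58 in the nonregenerated arrays. One unlesioned array stood at 3.46 and the other two at 0.00 and -0.33, so 1 unlesioned array was also high for aldoca. The parvalbumin pvalb7 had 4.39, 4.64 and 4.2 in the regenerated arrays, against -0.94, -1.79 and -1.90 in the nonregenerated arrays. The parvalbumin pvalb6 had 2.92, 1.99 and 2.31 in regenerated neurons, against 0.00, -0.37 and -1.80 in nonregenerated neurons, a change of 3.13 ± 0.49 (adjusted p = 0.0121). In both parvalbumins the groups were far apart, and the highest nonregenerated value was that of array 1. The Purkinje marker pcp4l1 had 4.13, 4.72 and 4.21 in regenerated arrays, against 0.00, -1.10 and -1.46 in nonregenerated arrays. Nonregenerated array 1 was again on top of its group. The IP3 receptor partner ca8, a carbonic anhydrase-related protein of Purkinje neurons, had 3.14, 4.34 and 3.61 in regenerated neurons, against -0.60, -0.76 and 0.73 in nonregenerated neurons, and here nonregenerated array 3 was the higher one. Hippocalcin (hpca), a neuronal calcium sensor, had 2.82, 3.08 and 2.77 in regenerated arrays, against 0.00, -1.05 and -1.26 in nonregenerated arrays, and rose by 3.66 ± 0.41, or 12.6-fold (limma adjusted p = 0.00442).

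Single genes of calcium stores, pumps and calcium-dependent enzymes were also among the 25. The store protein calsequestrin (casq2) had 3.40, 3.17 and 4.28 in the regenerated arrays, against -0.56, -0.41 and 0.00 in the nonregenerated arrays. The plasma membrane calcium pumps atp2b1a and atp2b2 rose by 3.12 ± 0.43 and 2.73 ± 0.36. For atp2b2 the values were 1.30, 1.81 and 2.11 in regenerated neurons, against -0.68, -0.66 and -1.65 in nonregenerated neurons. Calcineurin's catalytic subunit ppp3cb had 2.14, 2.55 and 2.66 in regenerated arrays, against -0.43, -0.09 and -0.41 in nonregenerated arrays, with an SE of 0.26 that was the smallest among the 25 rises (change 2.76). Groups without overlap were a condition for all of the 25. The kinase gene camk2d1 had 3.80, 3.75 and 2.92 in regenerated neurons, against -0.02, -0.71 and -0.89 in nonregenerated neurons. The kinase-like gene camkvl had 1.66, 2.47 and 1.62 in regenerated arrays, against -0.67, -1.32 and -1.30 in nonregenerated arrays. It is the only gene with probe sets called in opposite directions, since its other probe set changed by -0.93, and the mean of both was 1.04. Diacylglycerol kinase zeta (dgkzb), which removes diacylglycerol, had 3.29, 4.27 and 4.11 in regenerated neurons, against -0.48, -1.0 and -0.42 in nonregenerated neurons.

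Of 32 measured genes grouped by symbol as calcium-binding proteins and calmodulin kinases, pcp4l1 included, 9 rose and none fell. The median change was 0.44 beside 0.06 over all genes. Beyond those above the genes that rose were camk2d2 at 2.45 ± 0.39, s100a1 at 2.05 ± 0.39 and pvalb8 at 1.09 ± 0.23. With 1 array left out 6 to 8 were called higher, and with the covariate 6. The call of pvalb8 was lost in 8 of the 9 leave-one-out fits, that of camkvl, whose mean joins oppositely called probe sets, in 5 and that of s100a1 in 4. Of 14 calcium stores, pumps and exchangers 3 rose (median 0.25), and of 12 genes of diacylglycerol, phospholipase C and protein kinase C 3 rose (median 0.03), with dgkaa at 1.98 ± 0.29 and the phospholipase plcb4b at 2.73 ± 0.43. The covariate ended the call of plcb4b. Among 29 G protein subunits and RGS genes 3 rose, namely gng3 at 1.36 ± 0.16, the Gq-class subunit gna11b at 1.94 ± 0.33 and gnb5b at 1.81 ± 0.31. The gng3 values were 0.82, 0.80 and 0.66 in the regenerated arrays, against -0.55, -0.51 and -0.74 in the nonregenerated arrays, and the groups did not overlap. With 1 array left out 1 to 3 were called higher in this family, and gna11b and gnb5b each lost the call in 2 of the 9 fits.

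Sodium pump genes were called in both directions. The alpha subunit atp1a3b, the form of neurons in mammals, had 1.87, 2.31 and 2.64 in regenerated neurons, against -1.09, -1.0 and -1.52 in nonregenerated neurons (3.48 ± 0.45, or 11.1-fold, limma adjusted p = 0.00595). The alpha subunit atp1a1b had -1.42, -2.86 and -1.78 in regenerated arrays, against 0.20, 0.41 and 0.63 in nonregenerated arrays (-2.43 ± 0.36). It is also among the radial glial and astroglial markers called lower above. The beta subunits atp1b1b, atp1b2a and atp1b2b rose by 1.89 ± 0.32, 1.22 ± 0.21 and 2.02 ± 0.45. Of 13 sodium pump genes 4 rose and 1 fell, and leaving out 1 array gave 1 to 3 called higher. The call of atp1b1b was lost in 3 of the 9 leave-one-out fits, that of atp1b2a in 2 and that of atp1b2b in 8, and its nonregenerated array 2 stood at 0.44, above the other two at -0.85 and -1.11.

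Several rises belonged to energy metabolism. The respiratory chain subunit ndufa4b had 1.58, 2.00 and 1.52 in regenerated neurons, against -0.43, -1.45 and -1.74 in nonregenerated neurons. The mitochondrial enzyme ogdhl had 2.23, 2.77 and 3.56 in regenerated neurons, against 0.00, -0.91 and 0.00 in nonregenerated neurons. Lactate dehydrogenase B (ldhbb) had 2.13, 3.21 and 2.38 in regenerated arrays, against -0.24, 0.00 and -0.27 in nonregenerated arrays. Of 14 cytochrome c oxidase subunits cox4i1l, cox6b1 and cox5ba rose, cox4i2 fell and the median was 0.93, with 13 of 14 point estimates above 0. The call of cox4i2, at -1.79 ± 0.40, was lost in 8 of the 9 leave-one-out fits, and those of cox5ba and of the ATP synthase gene atp5md were lost in 5. Genes grouped by symbol as subunits of complexes I, II and III had 53 of 54 point estimates above 0 and a median of 0.52. The symbol need not match the complex a protein sits in. Only ndufa4b was called, and its copy ndufa4a (-0.35) was the one below 0, so the other genes of the group gave no call. All 18 ATP synthase subunits had point estimates above 0, with a median of 0.61 and 1 call, atp5md at 1.45 ± 0.29. Their array means were 0.08, 0.62 and 0.68 in regenerated neurons, against -0.44, -0.21 and 0.15 in nonregenerated neurons. The groups thus overlapped, with regenerated array 1 below nonregenerated array 3. Means of the symbol group of complexes I, II and III were 0.02, 0.54 and 0.62, against -0.32, -0.26 and -0.01. Those of cytochrome c oxidase were 0.54, 0.77 and 0.66, against -0.34, -0.27 and -0.10. Over all alternatives the medians of these 3 families stayed between 0.37 and 1.06. By comparison the median was 0.02 over 78 genes of cytosolic ribosomal proteins, with no call, and -0.09 over 50 proteasome genes, with no call.

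Among the 25 rises were also 6 single genes of surface, secreted, filament and chaperone proteins. Of 41 extracellular proteases and inhibitors plaua and adam23a rose, or 4.88% called beside 2.96% of all genes. The call of adam23a was lost in 6 of the 9 leave-one-out fits. Of 29 intermediate filament genes prph rose and viml fell (6.90%). None of 15 cadherins or 13 immunoglobulin adhesion genes rose and 1 of each fell. The mannose receptor mrc1a, known from macrophages and some endothelial cells, had 1.99, 4.11 and 3.39 in the regenerated arrays, against -0.52, 0.00 and -0.40 in the nonregenerated arrays. Urokinase (plaua), a secreted protease that activates plasminogen, had 1.94, 3.86 and 3.67 in regenerated neurons, against -0.28, -0.19 and 0.00 in nonregenerated neurons. Regenerated array 1 was the lowest of its group for both. The neuronal intermediate filament peripherin (prph) had 1.14, 3.24 and 3.17 in regenerated arrays, against -1.04, -1.12 and -0.33 in nonregenerated arrays, on a probe set that can bind related transcripts. The chaperone dnajb6b had 1.57, 3.09 and 2.89 in regenerated neurons, against -0.51, -0.27 and -0.38 in nonregenerated neurons. For these too regenerated array 1 lay well below the other two and, as the choice of the 25 required, above every nonregenerated array. The mean of the 4 probe sets of prph changed by 2.12 ± 0.41, a call lost in 6 of the 9 leave-one-out fits. The synaptic adhesion gene nptna rose by 2.93 ± 0.48 and the secreted factor gene ndnf by 2.81 ± 0.47.

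The other two of the 25 rises were pbxip1b and lrrfip1a. The gene pbxip1b, which encodes a partner of Pbx homeodomain proteins, had 2.95, 3.08 and 3.06 in the regenerated arrays, an SD of 0.07, against -1.33, 0.00 and -0.72 in the nonregenerated arrays. lrrfip1a had 2.61, 3.59 and 2.77 in regenerated arrays, against -0.41, 0.00 and -0.13 in nonregenerated arrays. Adjusted p-values of the 25 rises ran from 0.000517 to 0.0162. Regenerated array 2 lay farthest from the nonregenerated arrays in 17 of the 25 and array 1 nearest in 15. The unlesioned mean lay between the regenerated and nonregenerated means in 22, which picking the largest differences between those groups favours. Calls of prph, nptna and ndnf were lost without nonregenerated array 2, those of nptna and ndnf also without nonregenerated array 3 or regenerated array 2. Their changes over the 9 runs spanned 2.98 to 4.03 for prph, 2.53 to 3.58 for nptna and 2.39 to 3.14 for ndnf. With p adjusted over all probe sets, the calls of aldoca, ogdhl, pvalb6, ndnf and atp2b2 ended with the negative control covariate. Adjusted over all genes, that of atp2b2 was kept.

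**Figure D3:**
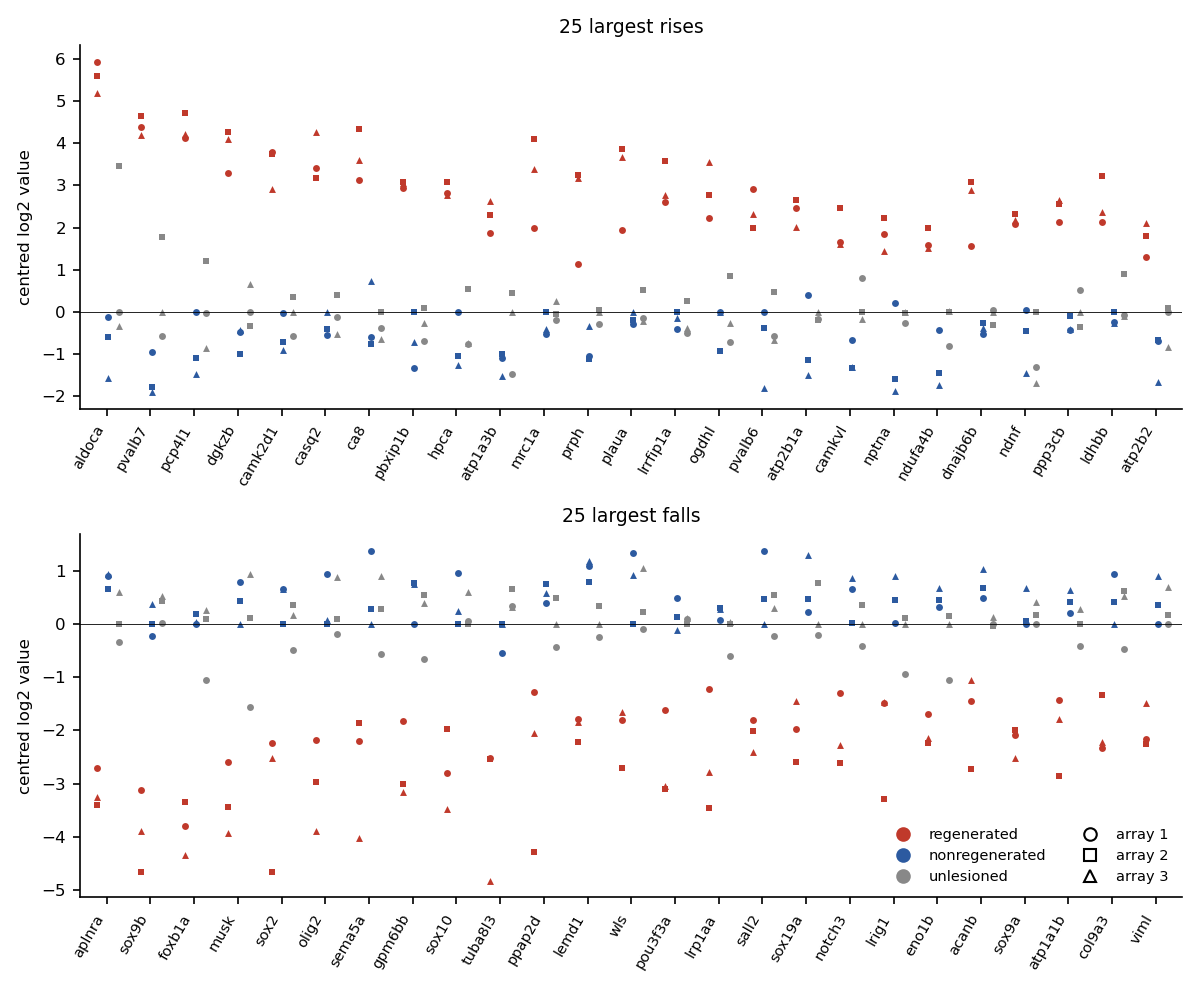
Centred log2 value (y axis) of the 25 largest rises (upper panel) and the 25 largest falls (lower panel) in each array, with regenerated arrays in red left of nonregenerated arrays in blue and unlesioned arrays in grey. Shapes mark the array number. Genes were chosen so that no red point overlaps the blue points of its gene. Red points spread over more than 3 log2 units in ppap2d.

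The 25 largest falls held 5 Sox genes. Sox9 and Sox2 proteins maintain glia and progenitors and Sox10 specifies oligodendrocytes. For sox9b the values were -3.11, -4.66 and -3.89 in the regenerated arrays, against -0.23, 0.00 and 0.37 in the nonregenerated arrays. For sox9a they were -2.09, -2.0 and -2.52 in regenerated neurons, against -0.01, 0.05 and 0.67 in nonregenerated neurons, the narrowest of the 5 (-2.44 ± 0.24, limma adjusted p = 0.00201). Regenerated array 2 stood far below the rest for sox2 with -4.65, beside -2.23 and -2.52 in regenerated arrays 1 and 3, against 0.66, 0.00 and 0.65 in the nonregenerated arrays. The other 2 probe sets of sox2 had the same direction and were not called. Changes were -3.15 for sox10 and -2.67 for sox19a. Over the whole family 9 of 18 measured Sox genes fell and none rose, with a median of -1.15, also sox21b at -1.16 ± 0.16, sox3 at -1.39 ± 0.26, sox4a at -1.82 ± 0.37 and sox8b at -0.97 ± 0.21. Of these 9, sox9a, sox9b, sox2, sox3 and sox19a are also called members of the glial list and sox10 of the oligodendrocyte list. The Sox count is thus not separate from the counts of those lists. Leaving out 1 array gave 5 to 8 called Sox genes. The call of sox8b was lost in all 9 runs, that of the sox2 mean in 7, that of sox4a in 6 and that of sox3 in 5. The growth-linked sox11a and sox11b were at -0.26 and 0.18, not called.

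Other transcription factors of glia and brain regions also fell. The forkhead gene foxb1a had -3.80, -3.34 and -4.35 in regenerated neurons, against 0.00, 0.19 and 0.04 in nonregenerated neurons. It was the only one of 25 forkhead genes called. The POU gene pou3f3a had -1.62, -3.10 and -3.04 in regenerated arrays, against 0.49, 0.14 and -0.12 in nonregenerated arrays. In pou3f3a regenerated array 1 was the least low. The oligodendrocyte lineage gene olig2 had -2.17, -2.96 and -3.89 in regenerated neurons, against 0.93, 0.00 and 0.08 in nonregenerated neurons. It was among 3 of 26 basic helix-loop-helix genes called lower (11.5%, beside 1.71% of all genes), and none rose. Leaving out 1 array gave 1 to 4 called lower in that family, and the covariate gave 1. The zinc finger gene sall2 had -1.81, -2.0 and -2.41 in regenerated arrays, against 1.37, 0.47 and 0.00 in nonregenerated arrays. Of 134 homeobox and Pax genes only pbxip1b, grouped here by its symbol, and the Purkinje gene lhx1a rose and pou3f3a and nkx2.2a fell. That is 2.99% of the family, beside 2.96% of all genes.

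Surface receptors and their ligands made up another part of the falls. The apelin receptor aplnra, a receptor of vessels and of migrating progenitors, had -2.71, -3.40 and -3.26 in the regenerated arrays, against 0.90, 0.66 and 0.94 in the nonregenerated arrays. The receptor kinase musk, known from the nerve-muscle synapse, had -2.59, -3.43 and -3.93 in regenerated neurons, against 0.79, 0.43 and 0.00 in nonregenerated neurons. All 3 regenerated arrays were low for both. The receptor notch3 had -1.30, -2.60 and -2.27 in regenerated arrays, against 0.65, 0.03 and 0.86 in nonregenerated arrays. The Wnt carrier wls, which brings Wnt ligands to the surface, changed by -2.80 on a probe set that can bind related transcripts. Its other 2 probe sets had the same direction and were not called. The lipoprotein receptor lrp1aa changed by -2.71, with its regenerated array 1 at -1.22 above -3.47 and -2.78. The lrig1 gene, whose protein restrains growth factor receptors, had -1.49, -3.29 and -1.47 in regenerated neurons, against 0.01, 0.45 and 0.91 in nonregenerated neurons. Here regenerated array 2 stood apart from the other two.

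Genes of the matrix and of axon guidance were called lower more often than higher in these counts. Sema5a, a semaphorin that can repel axons, had -2.21, -1.85 and -4.02 in the regenerated arrays, against 1.37, 0.28 and 0.00 in the nonregenerated arrays. Aggrecan (acanb), a core protein of perineuronal nets, had -1.45, -2.72 and -1.04 in regenerated arrays, against 0.49, 0.67 and 1.04 in nonregenerated arrays. The collagen gene col9a3 had -2.32, -1.34 and -2.21 in regenerated neurons, against 0.94, 0.41 and 0.00 in nonregenerated neurons. Among 46 collagens, laminins, tenascins and proteoglycans tnr, acanb, col9a3, vcanb and ncana fell and col15a1a rose by 1.76 ± 0.21, while the family's median was 0.07 (-0.05 centred on the 75th percentile and -0.04 with the covariate). Tenascin-R (tnr) and the proteoglycans versican (vcanb) and neurocan (ncana) changed by -2.28, -2.18 and -1.84. The call of ncana was lost in 5 of the 9 leave-one-out fits. Of 15 semaphorins, plexins and neuropilins sema5a and plxnb2a.3 fell, and of 12 netrins, slits, robos and repulsive guidance molecules rgmd (-2.27 ± 0.25) and robo1 (-1.35 ± 0.30) fell. None of 17 ephrins and Eph receptors was called, nor any of 5 integrins. The call of robo1 was lost in 8 of the 9 runs.

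Structural and metabolic falls closed the list. The tubulin gene tuba8l3 had -2.51, -2.54 and -4.83 in the regenerated arrays, against -0.54, 0.00 and 0.01 in the nonregenerated arrays. The vimentin-like gene viml had -2.16, -2.26 and -1.48 in regenerated arrays, against -0.01, 0.35 and 0.91 in nonregenerated arrays. Enolase 1b (eno1b) had -1.70, -2.23 and -2.14 in regenerated neurons, against 0.31, 0.46 and 0.68 in nonregenerated neurons, a fall of a glycolytic enzyme opposite in direction to aldoca and ldhbb. The membrane gene gpm6bb changed by -3.17 and lemd1 by -2.97. With -1.27, -4.29 and -2.05 in regenerated arrays, against 0.40, 0.75 and 0.57 in nonregenerated arrays, the lipid phosphatase gene ppap2d had the widest regenerated values of the 25 falls (SD 1.56). Adjusted p-values of the 25 falls ran from 0.000517 to 0.0405. Leaving out 1 array ended the call of ppap2d in 7 of 9 runs, of lrig1 in 5, of sema5a and lrp1aa in 4 each, of tuba8l3 in 2, and of musk, sox2, wls, acanb and col9a3 in 1 each. Nonregenerated array 2 or 3 was among the arrays left out in every one of these 10 genes. Their changes stayed between -1.94 for lrig1 and -4.09 for musk. With p adjusted over all probe sets, the covariate ended the calls of 12 falls. They were musk, olig2, sema5a, sox10, tuba8l3, wls, sall2, sox19a, lrig1, eno1b, col9a3 and viml.

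Signalling pathways contributed single genes, to be read against the 2.96% of all genes called (1.71% lower). In the Notch pathway notch3 and her6 fell among 31 genes, in the Wnt pathway ctnnb1 (-1.25 ± 0.22) and tcf7l1b (-1.72 ± 0.34) among 35, and in the Fgf pathway spry2, spred1 and fgfr2 among 28. The feedback inhibitor spry2 had -0.64, -1.80 and -0.90 in the regenerated arrays, against 0.48, 0.59 and 0.45 in the nonregenerated arrays. Of 44 genes of the Bmp and Tgf-beta pathway bmp3, inhbb and bmpr1aa fell and gdf3 rose. None of 9 Hedgehog genes was called. The calls of fgfr2, inhbb, bmpr1aa and gdf3 were lost in 7 to 9 of the 9 leave-one-out fits, that of spred1 in 6, that of tcf7l1b in 5, that of ctnnb1 in 3 and that of spry2 in 2. With 1 array left out there were 2 to 3 genes called lower in the Notch pathway, 0 to 3 in Wnt, 0 to 4 in Fgf and 1 to 3 in Bmp and Tgf-beta, and the covariate gave 1, 0, 2 and 1.

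Release and excitability genes gave few calls, with medians mostly above the 0.06 of all genes. Of 49 synaptic vesicle and SNARE genes rab3c, snap25b and cplx2a rose and stxbp3 fell by 1.43, or 8.16% called beside 2.96% of all genes, with a median of 0.13. The call of cplx2a was lost in 6 of 9 runs and that of snap25b in 5, and the covariate ended these 2 and stxbp3. The vesicle GTPase rab3c had 0.69, 1.53 and 1.40 in regenerated neurons, against -0.30, -1.49 and -1.23 in nonregenerated neurons. Of 11 genes grouped by symbol as GABA and glycine receptors, 3 of which encode glutaredoxins, glrba rose (1.27 ± 0.28, lost in 8 of 9 runs), and of 16 acetylcholine and monoamine receptors adra2b rose (1.68 ± 0.26), with medians of 0.36 in both and 14 of the 16 point estimates above 0. No call was made among 8 potassium channels (median 0.39), 10 sodium and calcium channels (0.45) or 5 glutamate receptors (-0.43). The transport motors, 35 kinesins and dyneins, also gave no call, from -1.0 to 1.37. Of 26 neuropeptides and hormones only chromogranin A (chga), a vesicle cargo protein, rose, by 1.53 ± 0.26. The covariate ended the calls of glrba, adra2b and chga.

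Among 19 tubulins and stathmins tubb2 and stmn2a rose and tuba8l3 and tuba1b fell. Leaving out 1 array gave 0 to 2 called in each direction there, with stmn2a lost in 8 of 9 fits, tubb2 and tuba1b in 6 and tuba8l3 in 2, and the covariate ended all 4 and called 1 other gene higher. Of 43 actin regulators marcksb fell by 1.43, or 2.33% called beside 2.96% of all genes, and of 28 genes grouped by symbol as microtubule-associated, kinases of the map symbol included, mapre1b and dpysl5b fell. In the chaperone family dnajb6b, hspa12a and hspa4l rose among 66 (4.55%). Among 42 activity and stress factors 2 fell (4.76%). They were egr4 with -1.79, -1.91 and -2.12 in the regenerated arrays, against 0.07, 0.00 and -0.28 in the nonregenerated arrays, and cebpd at -0.87 ± 0.20. The call of cebpd was lost in all 9 leave-one-out fits, that of dpysl5b in 7 and that of marcksb in 6. No gene was called among 67 of the cell cycle and DNA replication, 74 of histones and chromatin, 34 of lysosome and autophagy and 33 of redox defence.

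Genes associated with axon growth and injury, with a few neuronal and glial markers, were followed as a set of 26, of which 22 were measured, 3 rose, 1 fell and 18 were not called. GAP-43 (gap43), the growth cone protein, had -0.96, -0.24 and -0.34 in the regenerated arrays, against 0.43, -0.31 and 0.00 in the nonregenerated arrays. The groups overlapped, and the 95% interval of the change ran from -1.20 to 0.09. The stress factor atf3 had 0.34, 0.14 and 0.05 in regenerated neurons, against 0.42, 0.00 and -0.40 in nonregenerated neurons (interval -0.52 to 0.85). For jun the interval was -0.80 to 0.01, for stat3 it was -0.83 to 0.40 and for socs3b it was -1.23 to 0.57. The smallest called change of a gene was 0.81 in size. The intervals of gap43, atf3, stat3 and socs3b reach that size, so a change of called size is not excluded for these genes. The interval of jun ends just short of it. None of these intervals reaches the smallest of the 25 named rises (2.73) or falls (-2.39), which were picked as the largest in these data.

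The rest of that set was mixed. The factors klf6a at -0.62 and klf7b at -0.91, the stress gene gadd45aa at -0.97 and the proneural factor ascl1a at -1.59 were not called (limma adjusted p = 0.0949 for ascl1a). The adhesion genes l1cama and l1camb, which carry axon growth in many systems, were at 0.52 and 0.44 with intervals from -0.49 to 1.53 and from -0.59 to 1.46. Stathmin 2a (stmn2a), a microtubule regulator of growing axons, rose by 0.95 ± 0.21 with 0.00, 0.11 and 0.27 in regenerated arrays, against -0.49, -0.90 and -1.10 in nonregenerated arrays. The tubulin tuba1b fell, with -2.80, -1.27 and -2.06 in regenerated neurons, against -0.57, 0.06 and 0.67 in nonregenerated neurons. The release gene snap25b changed by 2.06 ± 0.41 and the GABA synthesis gene gad1b by 1.61 ± 0.35, both higher in regenerated neurons. Each of these 4 calls was lost in 5 to 8 of the 9 leave-one-out fits. The pan-neuronal gene elavl3 was at -0.03 with an interval from -0.54 to 0.49.

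Zebrafish keep many genes as 2 copies from an ancestral genome duplication, written a and b, and a pair measured in the same arrays allows the copies' changes to be set against each other. Pairs were formed from symbols that differ only in a last letter a or b. Some are therefore separate genes alike in name, such as vapa and vapb, and the counts include them. Of 662 pairs so formed 41 differed in their change (6.19%). The higher change was in the a copy in 17 (2.57%) and in the b copy in 24 (3.63%). In 19.8% of all pairs the differences between copies did not overlap between the groups. In 34 of the 41 the 2 point estimates had opposite signs, which picking pairs by their difference favours. No pair had both copies called in opposite directions. The copies of foxb1 were the clearest case. The a copy fell by 3.90 while foxb1b had 0.07, -0.06 and 0.22 in the regenerated arrays, against -0.04, 0.00 and 0.00 in the nonregenerated arrays, a difference of -4.0 ± 0.45 (limma adjusted p = 0.00114). For aldolase C the b copy aldocb had -0.36, -0.09 and 0.15 in regenerated arrays, against 0.00, 0.27 and 0.12 in nonregenerated arrays, near 0 in all 6, and the difference from aldoca was 6.56 ± 0.83. In centred values a copy near 0 in all arrays can be expressed and unchanged or too low to be read. These cannot be told apart for any pair here.

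Isozymes of energy metabolism split the same way in other pairs. Enolase eno1a was at 0.33 where eno1b fell by 2.51, ldhba was at 0.27 where ldhbb rose by 2.74, and ndufa4a was at -0.35 where ndufa4b rose by 2.90. The sodium pump subunit atp1a3a was at 0.51, beside 3.48 for atp1a3b. Chaperone dnajb6a was at -0.12 and dnajb6b at 2.90, and pbxip1a at 0.10 and pbxip1b at 3.71. In the RNA-binding pair msi2a was at -0.70 and msi2b rose by 1.31. In the endocytic adaptor pair picalma fell by 1.90 while picalmb was at 0.60. In each pair of this paragraph 1 copy was called and the other was not, and the difference between them was.

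In some split pairs neither copy was called. The hypoxia factors epas1a and epas1b were at 1.14 and -1.64, neither called. Both varied widely between regenerated arrays, with 2.79, 0.40 and -0.23 for epas1a and 1.02, -2.34 and -3.68 for epas1b. Array 1 was the highest in both copies, and the difference between the copies was called (2.78 ± 0.47, adjusted p = 0.00606). In the sox4 and col15a1 pairs 1 copy was called and the other was not. The a copy of sox4 fell by 1.82 with sox4b at 0.44, and that of col15a1 rose by 1.76 with col15a1b at -0.13. Both copies were called in 2 pairs, sox9a with sox9b and atp1b2a with atp1b2b, each in the same direction, and their differences were not called (adjusted p = 0.504 and 0.414). Exactly 1 copy was called in 47 pairs, and in 24 of these the difference was called too. The other 23 do not show that the copies differed. The count of 41 was 15 without nonregenerated array 2, 22 without nonregenerated array 3, 24 without nonregenerated array 1 and 23 without regenerated array 2. Among the 12 pairs with the smallest p the call of msi2 ended with the covariate and without regenerated arrays 1 and 3, and that of picalm with the covariate.

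**Figure D4:**
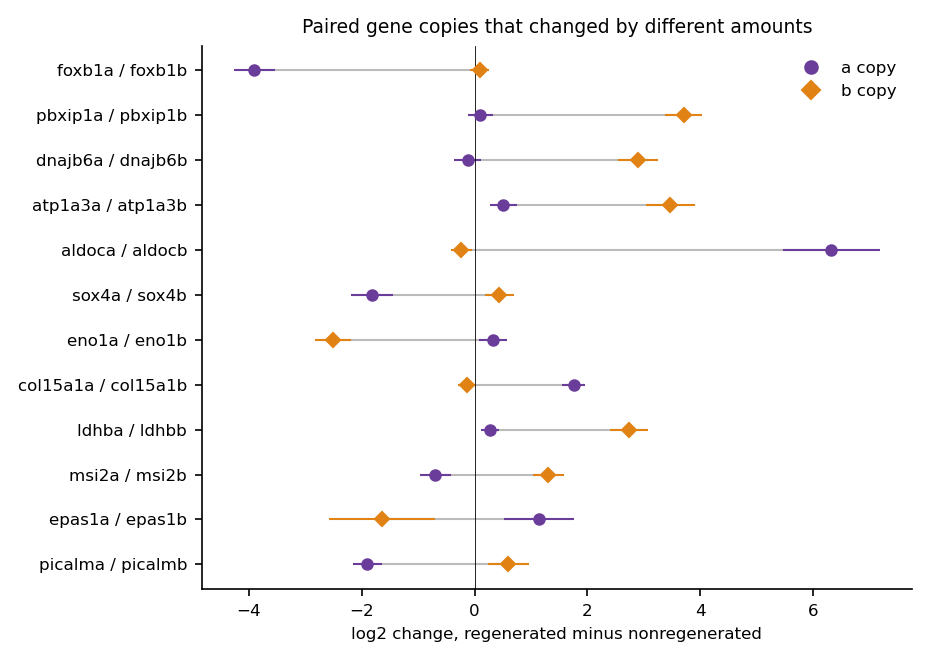
Log2 change (regenerated minus nonregenerated, x axis) of the a copy (circles) and the b copy (diamonds) of the 12 gene pairs with the smallest p for the difference, with bars for 1 SE and a grey line joining the copies. In the foxb1, pbxip1, dnajb6, aldoc, eno1 and ldhb pairs 1 copy lies near 0 and the other lies far from it, at 6.33 for aldoca.

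Genes with several probe sets allowed a check within the array. Of 66 genes with several probe sets and at least 1 call, 19 had 2 or more called. Of 80 uncalled probe sets of these genes 72 pointed in the direction of the called one. The exception with opposite calls was camkvl.

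The genes that varied most among the regenerated arrays were not called. The kainate receptor gene grik6 had 0.87, -2.29 and -5.46 in the regenerated arrays, against 0.64, 0.17 and -1.45 in the nonregenerated arrays. Oxytocin (oxt), the hypothalamic hormone, had 2.46, -1.59 and 4.41 in regenerated neurons, against -0.45, 0.32 and 1.55 in nonregenerated neurons. Regenerated array 2 was the low one for oxt, while array 3 was the low one for grik6. The vessel receptor kdrl had 4.75, 0.85 and 0.00 in regenerated arrays, against -0.26, -0.35 and -0.32 in nonregenerated arrays, and the chemokine cxcl12b had 3.88, 0.27 and -0.91 in regenerated neurons, against 0.44, -0.44 and 0.00 in nonregenerated neurons. Both were high in regenerated array 1, the array with the high control reading. The gene kdrl is itself among the 10 endothelial and mural markers, so it is part of the high endothelial mean of that array. A range over 2 log2 units within the group was found for 603 probe sets in the regenerated arrays and 177 in the nonregenerated arrays.

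The MHC class II gene mhc2daa was in both lists of widest ranges. It had -5.52, 0.55 and 0.31 in the regenerated arrays, against -5.46, -0.26 and 0.40 in the nonregenerated arrays, and lay between -0.34 and 0.46 in the unlesioned arrays. Array 1 of each lesioned group was thus far below its fellows. Array 1 was also high in both groups for igldcp, at 2.29 beside 2.89. No such match was seen for rasa1a, at 2.83 in nonregenerated array 2, or fkbp10b, at 2.25 there, which lay near 0 in all regenerated arrays.

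**Figure D5:**
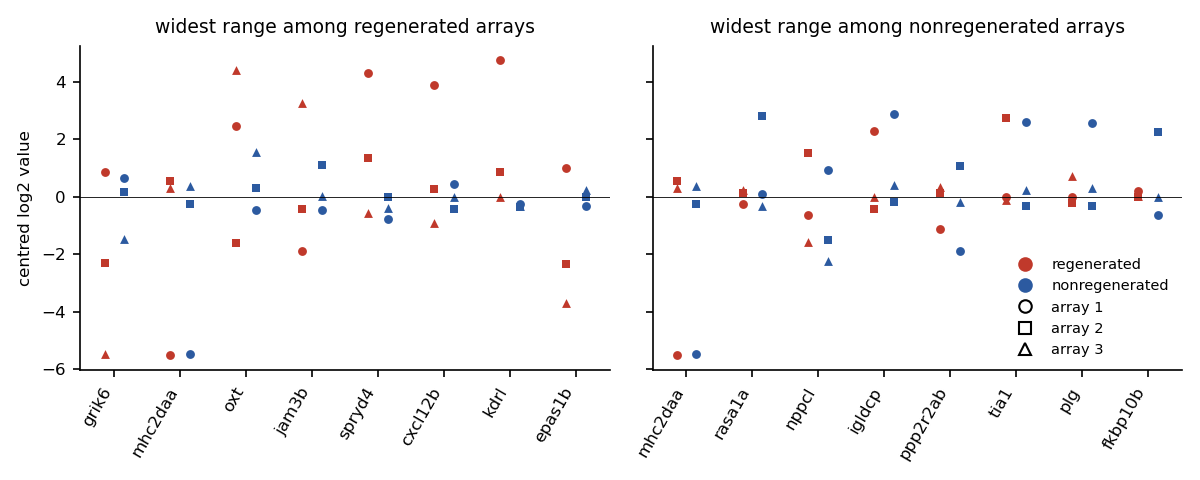
Centred log2 value (y axis) of the 8 genes with the widest range among the regenerated arrays (left) and the 8 among the nonregenerated arrays (right), with regenerated arrays in red left of nonregenerated arrays in blue and shapes for the array number. Array 1 of both groups lies below -5 for mhc2daa.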

How the data were processed

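Cells had been sorted from dissociated brain. Their RNA was extracted with miRNeasy Micro, amplified by Ovation Pico WTA and hybridised, biotin labelled, to 1 Affymetrix 3' IVT array per sample, per the labels' protocols. The deposited log2 values are the authors' RMA values, per the submitters' processing notes. The RMA version, and the step that set the median of all 15617 probe sets over the 9 arrays to 0, were not found in the sources used here. Such centring leaves differences between arrays unaffected, but no level and no signal over background is known.

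The 115 control probe sets were left out. One gene symbol was known for 10795 of the 15502 others from the platform annotation, several for 135 and none for 4572, and 10711 were matched by gene identifier to a RefSeq table (assembly GRCz12tu, names only). Of the tested probe sets 471 can bind related transcripts by their suffix.

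Group means were fitted to all 9 arrays with limma 3.58.1 (R 4.3.3), all p-values being two-sided, and tested on simulated data. The pooled spread has 6 residual and 3.16 prior degrees of freedom. The same model was fitted to the mean of a gene's probe sets (8793 genes) for lists. It was also fitted to the difference between genes whose symbols differ only in a last letter a or b (662 pairs). Families were drawn up by gene symbol, so a few hold neighbours in name, such as ribosomal S6 kinases among ribosomal proteins, assembly factors among respiratory subunits and keratins among filaments. Named genes were the 25 largest rises and 25 largest falls with an informative symbol and groups that did not overlap, up to 4 called genes per list by smallest p, the 26 fixed genes, the 8 genes of widest range per group, the 12 pairs of smallest p, and genes with opposite calls. Genes named beyond this, to complete a count or to show members that were not called, were chosen after their values were seen. The comparison, its lists and its gene families were chosen with earlier results of these data known. An exact permutation test of 3 against 3 arrays cannot give a two-sided p under 0.1 and was not used. Alternatives were the 6 lesioned arrays alone, array weights, other scalings, robust moderation, a negative control covariate, a replicate block and leaving out arrays. Figures were drawn with matplotlib 3.10.9.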

Additional observations from a re-analysis of the deposited data

How the results depend on the processing

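The counts of called probe sets, genes and gene pairs (380, 260 and 41) moved by more than 1.5 times under several settings. The 6 lesioned arrays alone gave 224, 137 and 27, a further quantile normalization 176, 109 and 23, and the negative control covariate 183, 136 and 27. Leaving out 1 array gave 181 to 572 probe sets, 109 to 340 genes and 15 to 39 pairs. Probe sets with the larger SD tested alone gave 740 calls. That SD was taken over all 9 arrays and holds the group difference, so this choice favours calls by itself. An adjusted p under 0.01 left 131. Array weights (332), robust moderation (342), centring on the median (377) or the 75th percentile (470) and leaving out regenerated arrays 1 and 3 (481) stayed within 1.5 times. The cause was not tested.

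Of the 50 largest rises and falls 27 kept their call in all 19 alternatives and 37 in all 9 runs that left out 1 array. Of the 41 pairs 12 and 15 did so, and of 110 called members of lists 35 and 52, while 36 members changed their call in 5 or more of the 9 runs. None of these changed sign. Signs that turned were all of fixed genes that were not called. The change of elavl3 was 0.057 after quantile normalization, 0.16 on leaving out both regenerated arrays 1 and 3, and 0.26 on its probe set of largest SD, and it ran from -0.12 (without regenerated array 2) to 0.13 (without regenerated array 3) over the leave-one-out fits, with 0.0048 without nonregenerated array 3. The covariate gave 0.13 for gap43, -0.036 for l1camb and -0.052 for mbpa. The leave-one-out changes of mbpa ran from -0.14 (without regenerated array 1) to 0.82, those of atf3 from -0.038 (without nonregenerated array 3) to 0.37, those of sox11b from -0.0069 (without nonregenerated array 3) to 0.44 and those of stat3 from -0.48 to 0.074 (without regenerated array 2). On its probe set of largest SD sox11b was at -0.33. The share of probe sets with the larger SD in regenerated arrays was 63.2% as deposited and 45.5% after quantile normalization, which narrows those arrays by itself.

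With the replicate number as a block the counts were 280 probe sets, 203 genes and 31 pairs, of which 246, 179 and 30 were also called without it. Deviations from the group means correlated at 0.115, -0.04 and 0.26 between same-numbered arrays, and at -0.263 to 0.147 between arrays of different number, and no label says what a number shares, so the numbers were not taken to pair the arrays. A variance trend on mean level was not run, since centred values hold no level. Precision is limited by the 3 arrays a group, and low signal cannot be told from high.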

Other observations

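Arrays of the same number shared some of their lone values. A probe set over 1 log2 unit beyond both other arrays of its group was found in the same direction in 43 probe sets for regenerated and nonregenerated array 1, beside 15 in opposite directions. The number was 7 beside 19 for array 2 of each group and 48 beside 4 for array 3 of each group. Between arrays of different number, regenerated array 3 and nonregenerated array 1 had 4 in the same and 55 in opposite directions, and regenerated array 2 and nonregenerated array 1 had 35 and 9. The class II gene mhc2daa and igldcp were among those of array 1. What the numbers share was not tested.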
